A study of Ovis aries with 36 samples.

Results

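The comparison asked whether the 6 weeks after tendon repair changed the transcripts of the operated infraspinatus differently in sheep under nandrolone and in sheep without it. For each animal the change was the log2(value + 1) at the end of the experiment (END) minus that at repair (TR), and the changes of 3 N22W animals were set against those of 3 CONTROL animals. These 6 animals gave 12 of the 36 libraries of the series. All animals were 2-year-old female Swiss Alpine sheep whose infraspinatus tendon was cut from the bone at the start and sewn back after 16 weeks. N22W animals received 150 mg of nandrolone decanoate every week from release to the end, so they had had 16 weeks of drug at TR and 22 weeks at END. N6W animals received the same weekly dose from repair onwards, 6 weeks in all, and serve here to define groups of genes, as another arm without drug for the release change, and to share the estimate of the spread. CONTROL animals were released and repaired without the drug. The design text describes 18 animals, 6 per arm, of which 3 per arm were analysed here. The labels give arm body weights of 47.1 ± 0.8 kg for N22W and 45.3 ± 1.9 kg for CONTROL without naming the kind of error.

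The infraspinatus is a muscle of the rotator cuff, the group of muscles that holds and turns the shoulder joint. A rotator cuff muscle whose tendon has come off the bone retracts, loses fibre mass and gathers fat and connective tissue, and reattachment of the tendon loads it again. Nandrolone is an anabolic steroid that binds the androgen receptor, a transcription factor of muscle fibres and of their stem cells, and the decanoate ester releases it slowly from the injected site. The deposited identifiers could not be paired with gene names (0 of 25197 matched), so genes are given by Ensembl identifier, no function can be attached to them, and the tissue could not be checked against its markers. A piece of muscle holds several cell types, so fewer cells of a type and less RNA per cell cannot be told apart in any value below.

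Values are reads per gene divided by 1 size factor per library, called normalised reads here. The 12 libraries held 12826148 to 43066078 reads. The TR libraries of both arms belong to a set of 12 libraries, with PRE, the biopsies before release, and the END libraries belong to the other 24, which also hold the other side at the end (END-CC). In 499 genes every library of the first set lay over 8-fold above every library of the second, on the value + 1 scale, and no gene did so in the opposite direction. These genes took 8.34 to 10.2% of the summed values in N22W at TR and 9.51 to 12.8% in CONTROL at TR, against 0.0290 to 0.0362% in N22W at END and 0.0384 to 0.0538% in CONTROL at END. The median change over all genes was −0.45, −0.47 and −0.49 in the 3 N22W animals and −0.49, −0.47 and −0.42 in the 3 CONTROL animals. Both arms cross the step between the sets, so a change within an arm is not read, and only the difference of the changes is. Scaling by 1 size factor per library tends to make such medians alike. They therefore cannot show whether the step was alike in both arms for each gene, which was not tested.

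The 6 weeks after repair gave almost no gene whose change differed detectably between nandrolone and no drug. Of 16417 genes tested with limma, 1 passed a false discovery rate of 0.05 (0.00609% of the genes tested), with a lower change in N22W, and 0 passed with a higher change (0%). The count was 1 with edgeR, 2 with DESeq2 and 0 in limma without the animal block. At an unadjusted p under 0.05 there were 470 genes (2.86%), 206 genes of them with a higher change in N22W (1.25% of the genes tested) and 264 with a lower one (1.61%). The 3 N22W changes all lay above the 3 CONTROL changes in 590 genes (3.59%) and all below them in 738 (4.50%). With 3 animals against 3, some genes separate in this way by chance alone, so these counts are not calls. The median difference over all genes was 0.00. The plot of the differences over all genes shows this spread around 0, widest at low levels.

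**Figure D1:**
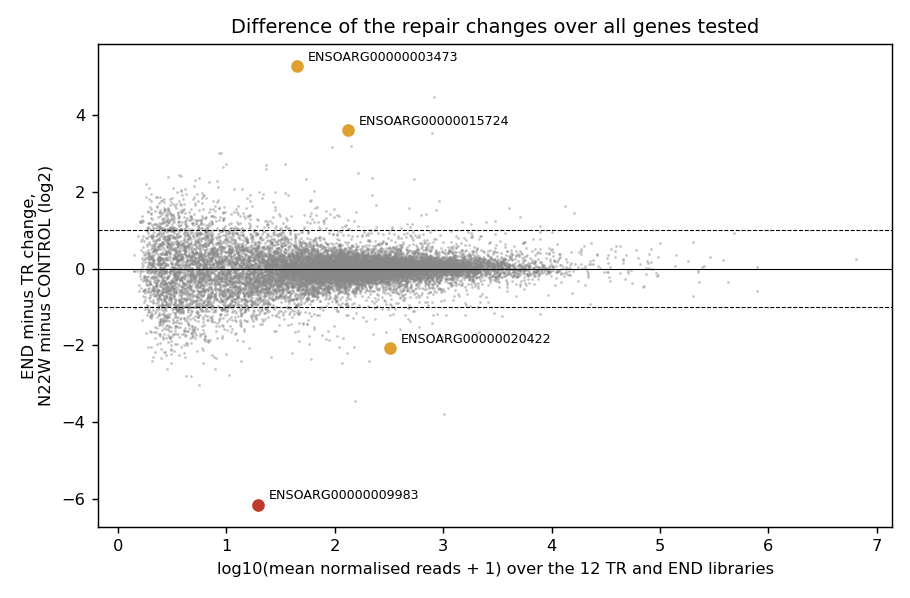
Difference between the END minus TR change of N22W and that of CONTROL (log2, vertical axis) for each of the 16417 genes tested, against the mean level over the 12 TR and END libraries (log10 of normalised reads + 1, horizontal axis). Dashed lines mark a difference of 1 in either direction, the red point is the gene past the threshold at −6.14, and orange points are the 3 other genes described by name for this comparison.

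How small a difference these 6 animals could show depended on the level of the gene. The standard error of the difference had a median of 0.33 over all genes, and 8881 genes (54.1%) had a 95% interval that lay inside a 2-fold difference in either direction. For the 6838 genes with a mean from 100 to 1000 normalised reads the median standard error was 0.22, and 84.9% of the intervals lay inside 2-fold. For the 1801 genes above 1000 the share was 83.5%, and for the 4827 genes from 10 to 100 it was 32.6%. Among the 2951 genes below 10, with a median standard error of 0.84, 1 gene had an interval that narrow, and 27.5% had one inside 4-fold. These intervals are not adjusted for the number of genes tested, so a gene can have an interval clear of 0 and not be called. ENSOARG00000020422, described below, was such a gene, at −2.07 (SE 0.41, limma unadjusted p = 3.88e-05). The SD of the 3 changes of an arm had a median over genes of 0.33 in N22W and 0.30 in CONTROL. The median absolute difference between the arms was 0.20. It compares means of 3 animals, so it cannot be set directly against an SD of single animals.

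The gene past the threshold, ENSOARG00000009983, was nearly silent in N22W and present in CONTROL 6 weeks after repair. At END it had 0, 1.28 and 1.57 normalised reads in N22W animals 2913, 2914 and 2915, against 66.0, 20.6 and 50.8 in CONTROL animals 2901, 2902 and 2903. At TR it had 2.41, 12.1 and 56.2 in the same N22W animals, against 2.49, 3.15 and 5.44 in the same CONTROL animals. The arms did not overlap at END and overlapped at TR, where N22W animal 2915 stood highest. Its change was −1.77, −2.52 and −4.48 in N22W and 4.27, 2.38 and 3.01 in CONTROL, so every N22W animal lay below every CONTROL animal. The difference was −6.14 (log2, SE 1.00, 95% interval −8.21 to −4.08, limma adjusted p = 0.041). The N22W END values rest on 4 reads in 3 libraries, against 149 reads in CONTROL. This makes a ratio of N22W to CONTROL of 0.0234 at END, with an exact 95% interval of 0.00629 to 0.0612 that covers counting error only. At TR the reads were 57 and 13, and the ratio was 4.74 (2.56 to 9.43). Of the 57 reads 42 came from animal 2915. In a check chosen after seeing the data, the TR ratio was 1.61 (0.714 to 3.67) without animal 2915 and 8.83 (4.75 to 17.7) without 2913, and the END ratio was 0.0120 (0.000302 to 0.0680) without 2915. The call did not hold without CONTROL animal 2901 (adjusted p = 0.558), 2902 (0.092) or 2903 (0.362), nor without N22W animal 2914 (0.199) or 2915 (0.941), nor without the animal block (0.172). It did not hold with a pseudocount of 0.5 either (0.0596), while the difference stayed between −7.98 and −4.49 in the alternatives.

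On the other side at the end ENSOARG00000009983 was low in both arms, with 2.57, 0.820 and 2.66 normalised reads in N22W and 2.85, 1.23 and 11.1 in CONTROL. Before release it was low as well, with 2.11, 2.35 and 2.26 in N22W and 2.18, 3.01 and 15.9 in CONTROL. The 4 highest values of the gene in the series, across sets that were scaled apart, were those of the operated muscle at END in the 3 CONTROL animals and at TR in N22W animal 2915. END against END-CC, a comparison inside 1 set of libraries that shares the END libraries, gave a difference between the arms of −3.84 (SE 1.00, adjusted p = 0.911), and END compared directly gave −4.55 (SE 0.56, adjusted p = 0.16). In N6W, which received the drug from repair onwards, END values were 5.05, 13.7 and 6.63, between those of the other arms.

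ENSOARG00000020422, a gene of middle level, had the next smallest p. At TR it had 266, 312 and 438 normalised reads in N22W, against 150, 172 and 140 in CONTROL. After 6 weeks of repair the values were 231, 400 and 172 in N22W, against 609, 302 and 642 in CONTROL. The arms did not overlap at TR, with N22W higher, and overlapped at END, with the N22W mean lower. Its changes were −0.20, 0.36 and −1.34 in N22W and 2.02, 0.81 and 2.19 in CONTROL. The difference of −2.07 (SE 0.41, 95% interval −2.91 to −1.22) did not pass in limma (adjusted p = 0.318) and passed in DESeq2 (−2.14, adjusted p = 0.00219). END against END-CC gave −0.35 (SE 0.41), since END-CC values were also lower in N22W, at 71.9, 116 and 70.2, than in CONTROL, at 109, 150 and 130.

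In the opposite direction no gene passed. Of the genes with non-overlapping changes and a mean of at least 10, ENSOARG00000003473 had the smallest p there, and it was present only in the CONTROL libraries at TR above a few reads among these 12. These held 8.28, 76.3 and 436 normalised reads in animals 2901, 2902 and 2903, against 1.20, 1.10 and 1.34 in N22W at TR. Its END values were 0, 1.28 and 1.57 in N22W and 0, 0 and 1.98 in CONTROL, at most 3 reads per library. The fitted difference of 5.27 (SE 1.27, adjusted p = 1.0) depends on the pseudocount and ran from 3.96 to 7.57 in the alternatives. In N6W the gene was low at TR, at 0, 1.47 and 2.05.

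ENSOARG00000015724 had 299, 28.6 and 130 normalised reads in N22W at TR, against 46.4, 116 and 720 in CONTROL. At the end it stood at 70.0, 55.1 and 73.4 in N22W, against 9.97, 6.51 and 5.94 in CONTROL. The arms overlapped at TR and stood apart at END, where N22W was higher. The difference of the changes was 3.60 (SE 1.01, 95% interval 1.52 to 5.68, adjusted p = 1.0), and it was 2.38 without CONTROL animal 2903, which had the highest TR value. The same order was seen on the other side at the end, with 21.8, 4.92 and 6.22 in N22W and 0, 1.23 and 0 in CONTROL, and END against END-CC gave a difference of 0.08 (SE 1.01). In the plot of these 4 genes the lines of N22W and CONTROL differ in slope, which follows from how the genes were chosen.

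**Figure D2:**
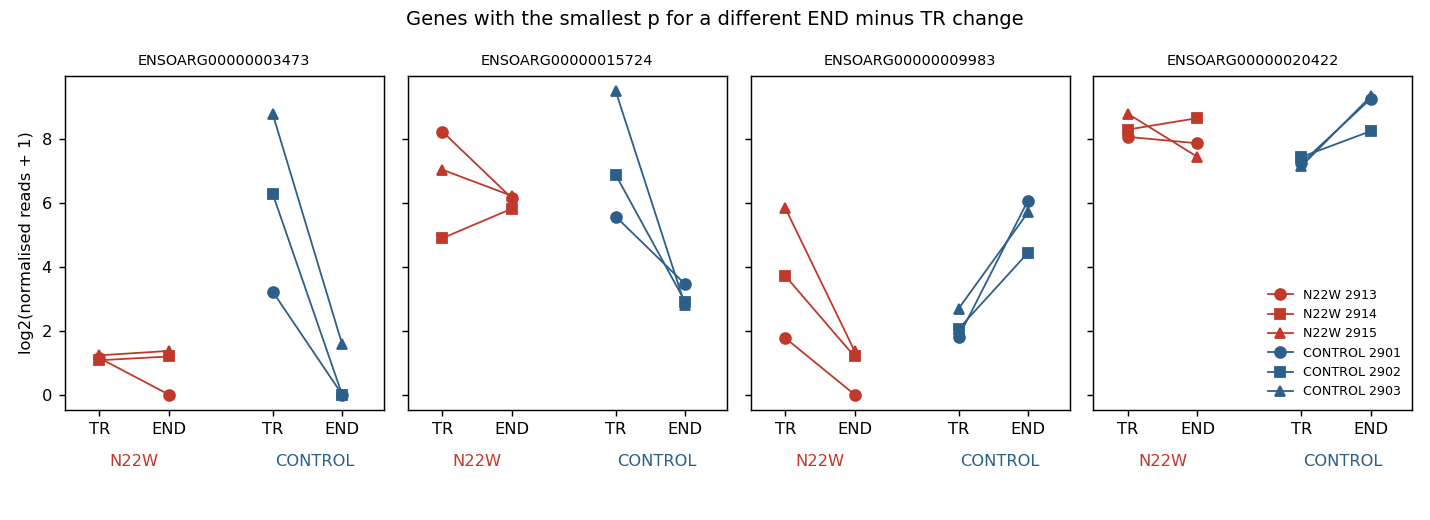
Level of 4 genes at TR and END in each animal (log2 of normalised reads + 1), with N22W at the left of each panel and CONTROL at the right, and 1 line per animal. For ENSOARG00000009983 every N22W change lies below every CONTROL change. Each line includes the step between library sets, which both arms cross.

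The difference of the changes is made of a difference at END minus a difference at TR, and both were compared directly. At TR, after 16 weeks of release, 4 genes passed between N22W and CONTROL (0.0244% of the genes tested), 2 higher and 2 lower in N22W, and 631 had an unadjusted p under 0.05 (3.84%). At END 0 passed in limma and 0 in edgeR, with 824 (5.02%) and 777 genes at an unadjusted p under 0.05. The 2 genes higher in N22W at TR had a median difference of 4.55 there and 3.59 at END, and the 2 lower genes had −2.78 and −3.11, so the order of the arm means was the same at both times. The differences of their repair changes had medians of −0.96 and −0.33 (0.02 for the lower pair without N22W animal 2915), and 0 of the 4 passed. These 4 genes were chosen by their TR difference, which the repair change subtracts. Their TR values and repair changes are therefore not free of that choice. The TR count was 0 without CONTROL animal 2901 or 2903 or N22W animal 2913 or 2915, 1 without CONTROL animal 2902, 5 without N22W animal 2914, and 0 with only the 6 libraries of both arms.

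The remaining comparisons between the arms gave no call in limma. END minus END-CC gave 0 (0%), with 753 genes (4.59%) at an unadjusted p under 0.05 in limma and 0 calls with 689 such genes in edgeR. The release change from PRE to TR, which shares the TR libraries with the repair change, gave 0 calls in limma with 1090 such genes (6.64%) and 10 calls in edgeR. The other side at the end gave 0 with 1499 such genes (9.13%), and PRE, before any drug, gave 0 with 793 (4.83%), both in limma. Whether these shares differ from the 2.86% of the repair change was not tested.

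Genes whose release change had differed under nandrolone still stood on the same side of CONTROL 6 weeks after repair. Release changes of N22W were compared with those of CONTROL and N6W together, which gave 9 genes (0.0548% of the genes tested) and used the same TR libraries. Of the 4 with a higher release change, 4 were higher in N22W than in CONTROL at END, and of the 5 with a lower one 0 were. Over all genes tested 8527 of 16417 were higher at END. The other side at the end gave the same counts, 4 of the 4 and 0 of the 5, beside 8554 of all genes tested. The differences of the repair changes had medians of −0.46 in the 4 and −0.24 in the 5, and 0 of the 9 passed. The choice of these 9 genes used TR values, which the repair change subtracts. Their TR values and repair changes are therefore not free of that choice. The median of the 4 was −0.22 without CONTROL animal 2902, −0.78 without CONTROL animal 2903 and −0.27 without N22W animal 2915. That of the 5 was −0.05 without CONTROL animal 2902, −0.55 without 2903, and −0.38 and −0.15 without N22W animals 2913 and 2914. ENSOARG00000007230 had 16.2, 26.4 and 40.2 normalised reads in N22W at TR, against 3.31, 0.787 and 3.62 in CONTROL. After repair it had 39.8, 34.6 and 29.3 in N22W, against 11.2, 4.34 and 3.30 in CONTROL. Every N22W animal stood above every CONTROL animal at both times. The repair changes of 1.24, 0.38 and −0.44 in N22W and 1.50, 1.58 and −0.11 in CONTROL overlapped, with a difference of −0.60 (SE 0.95, 95% interval −2.56 to 1.36). In N6W, where the drug began at repair, the gene was at 0 in all 3 TR libraries and at 35.4, 12.3 and 39.1 at END.

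ENSOARG00000019246 was likewise almost absent without drug at TR, with 71.0, 48.5 and 143 normalised reads in N22W against 1.66, 0 and 0.906 in CONTROL. After 6 weeks it had 58.3, 62.8 and 63.4 in N22W, against 12.5, 6.51 and 1.32 in CONTROL. The arms stood apart at both times, by less at END, and the difference of the changes was −2.20 (SE 1.15, 95% interval −4.59 to 0.18, adjusted p = 1.0). CONTROL TR values are at most 2 reads per library, so this difference depends on the pseudocount and ran from −3.47 to −1.37 in the alternatives. In N6W it was at 5.05, 2.74 and 91.4 at END, high in 1 of 3 animals.

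ENSOARG00000007090 lay lower under the drug, with 95.7, 132 and 143 normalised reads in N22W at TR against 469, 492 and 357 in CONTROL. The END values were 123, 64.1 and 113 in N22W, against 461, 675 and 351 in CONTROL. The arms did not overlap at either time, and the repair changes differed by −0.47 (SE 0.38, 95% interval −1.26 to 0.32). In N6W it had 566, 272 and 310 at TR, before the drug, and 210, 86.2 and 123 at END. ENSOARG00000001626 had 194, 145 and 378 in N22W at TR, against 422, 436 and 708 in CONTROL. By the end it had 234, 127 and 339 in N22W, against 451, 651 and 681 in CONTROL. The difference of its repair changes was −0.23 (SE 0.40, 95% interval −1.06 to 0.59), an interval that reaches just past a 2-fold lower change. In N6W it had 315, 384 and 381 at TR and 249, 595 and 278 at END. Its changes there were −0.34, 0.63 and −0.45, without a shared direction. N22W minus CONTROL was −1.84 (SE 0.41) on the other side at the end, beside −1.43 (SE 0.39) at END. At PRE, before any drug, ENSOARG00000001626 had 431, 557 and 901 in N22W, against 470, 226 and 280 in CONTROL. That difference of 0.95 (SE 0.30) is part of its release change. The PRE difference was −0.08 in ENSOARG00000007090, 0.0 in ENSOARG00000019246 and −0.52 in ENSOARG00000007230. All 4 genes are plotted at every time point.

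**Figure D3:**
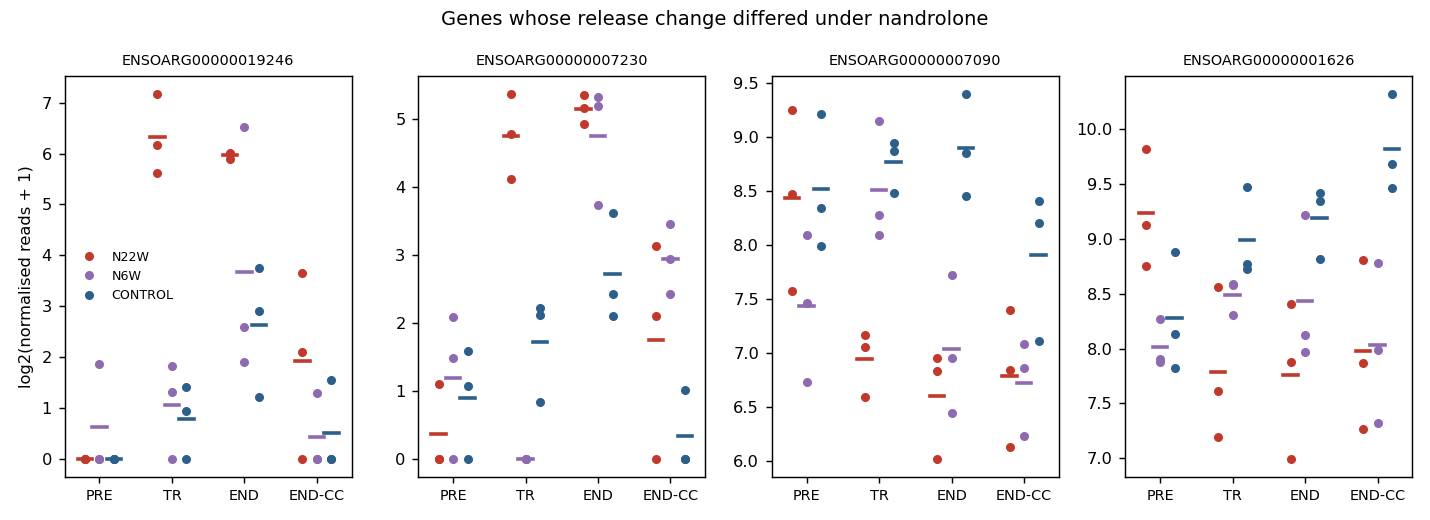
Levels of 4 genes with a different release change under nandrolone (log2 of normalised reads + 1), at PRE, TR, END and on the other side (END-CC). Points are animals and short bars are means of 3, in N22W (red), N6W (purple) and CONTROL (blue); N22W and CONTROL stand apart at TR and at END, and N6W at END lies nearer to N22W for ENSOARG00000007230 and ENSOARG00000007090. PRE and TR of N22W and CONTROL lie in another library set than all other values, so levels compare within a set.

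The genes that changed over repair in N6W gave a view from animals outside the comparison. Limma called 14 genes from TR to END in N6W (0.0853% of the genes tested). The drug began in these animals at repair, so drug and repair cannot be told apart in any change of N6W from TR to END. Of the 8 that rose there, all 8 were higher in N22W than in CONTROL at TR, where N22W had been under the drug for 16 weeks, with a median difference of 0.69. Of the 6 that fell, 0 were higher in N22W at TR, with a median difference of −0.25, and over all genes tested 8412 of 16417 were higher. At END 6 of the 8 and 2 of the 6 were higher in N22W than in CONTROL, with medians of 0.60 and −0.32, beside 8527 of the 16417 genes tested. The repair changes of the 8 and the 6 in N22W minus CONTROL had medians of −0.40 (−0.16 without N22W animal 2915) and −0.07 (0.04 without CONTROL animal 2903 and 0.14 without N22W animal 2915). Of the 14, 0 passed. No test was run for these counts, and 2 of the genes described above, ENSOARG00000007230 and ENSOARG00000007090, are among the 14.

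Genes of the release response, defined in N6W, leaned slightly against their release direction in N22W relative to CONTROL, in values that overlapped between the arms and were not tested. Between PRE and TR, limma called 618 genes upwards and 528 downwards in N6W (6.98% of the genes tested in all). Of the 618 raised genes, 380 (61.5%) had a lower repair change in N22W than in CONTROL, with a median difference of −0.11, against 49.7% and 0.00 over all genes. Of the 528 lowered genes, 360 (68.2%) had a higher repair change in N22W, with a median of 0.08, against 50.3% over all genes. None of these 1146 genes passed the test, and 3.72% of the raised and 3.22% of the lowered had an unadjusted p under 0.05, against 2.86% of all genes. Over all genes the direction also differed by level. The repair change was higher in N22W in 59.5% of genes above 1000 normalised reads and 52.0% from 100 to 1000. It was lower in 53.8% of genes from 10 to 100 and 52.2% below 10. The groups defined in N6W, here and below, were not matched for level, and the part of level was not tested.

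Per animal, the mean change of the raised genes was −0.50, −0.41 and −0.72 in N22W and −0.22, −0.48 and −0.43 in CONTROL. That of the lowered genes was −0.37, −0.64 and −0.52 in N22W and −0.74, −0.58 and −0.51 in CONTROL. The arms overlapped in both groups, and the arm means differed by −0.17 in the raised genes (SD between animals 0.16 in N22W and 0.14 in CONTROL) and by 0.10 in the lowered genes (0.14 and 0.12). The median of the raised genes was −0.05 without CONTROL animal 2901 and −0.04 without N22W animal 2915. That of the lowered genes was 0.03 without CONTROL animal 2901, 0.04 without N22W animal 2913, and 0.14 without CONTROL animal 2903 or N22W animal 2914. Of the raised genes 14 had all N22W changes above all CONTROL changes (2.27%) and 44 had them all below (7.12%), beside the 3.59% and 4.50% of all genes. Of the lowered genes 33 had them all above (6.25%) and 10 all below (1.89%).

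Genes that differed between the operated and the other side in N6W at END, 677 in all (4.12% of the genes tested), leaned in 1 of the directions. Of the 418 genes higher in the operated muscle there, 280 (67.0%) had a lower repair change in N22W than in CONTROL, with a median difference of −0.19. Their mean change was −0.57, −0.38 and −0.97 in N22W animals 2913, 2914 and 2915, and −0.19, −0.53 and −0.63 in CONTROL animals 2901, 2902 and 2903. Animal 2915 was the lowest and animal 2901 the highest, and the other 4 overlapped. The median was −0.08 without animal 2901, −0.29 without animal 2914 and −0.03 without animal 2915. Of the 259 genes lower in the operated muscle, 134 (51.7%) had a lower repair change in N22W, with a median of −0.01, close to the 49.7% and 0.00 of all genes. All N22W changes lay above all CONTROL changes in 12 of the 418 genes (2.87%) and 12 of the 259 (4.63%). They lay all below in 48 (11.5%) and 14 (5.41%). Over all genes tested the shares were 3.59% above and 4.50% below. The plot of group means by animal shows the overlap.

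**Figure D4:**
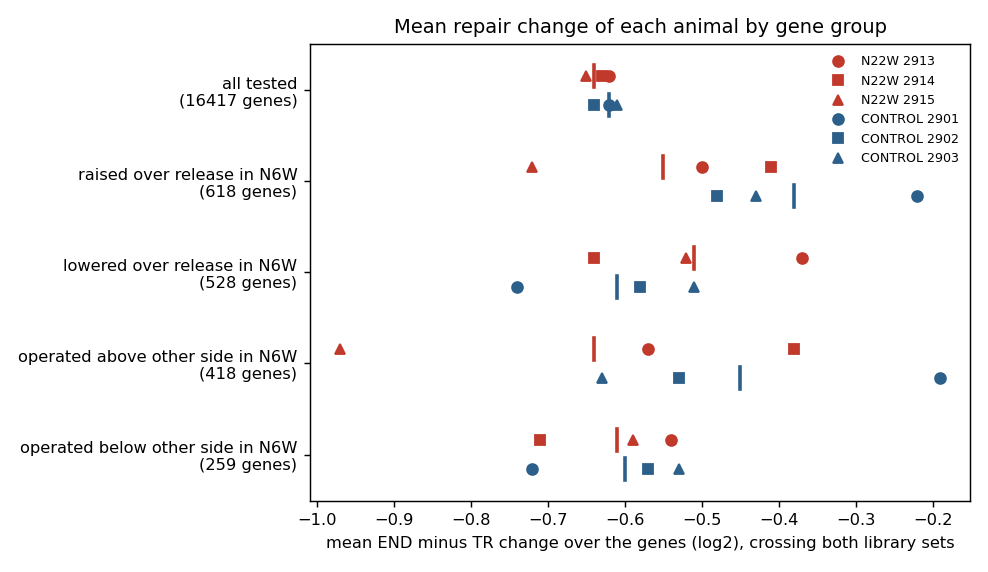
Mean END minus TR change (log2) of each animal over all genes tested and over 4 groups of genes defined in N6W animals, N22W in red above CONTROL in blue; vertical bars are arm means of 3 animals. The absolute position includes the step between library sets, which both arms cross, and the arms overlap in every group.

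The 4 genes that changed most over release in N6W did not pass the test for the repair change. ENSOARG00000012921, with the largest rise there, had 246, 320 and 1295 normalised reads in N22W at TR and 242, 407 and 168 in CONTROL. The END values were 405, 559 and 517 in N22W and 415, 619 and 191 in CONTROL, and the arms overlapped at both times. The repair changes differed by −0.45 (SE 0.85, 95% interval −2.21 to 1.30), a difference that N22W animal 2915 decides, since it was 0.24 without it. ENSOARG00000009525, the next largest rise, had 15.5, 14.1 and 18.3 in N22W at END, against 78.5, 51.0 and 34.3 in CONTROL. Its N22W changes of −0.11, −0.12 and −1.31 lay below the CONTROL changes of 1.12, 0.75 and 0.23, with a difference of −1.21 (SE 0.99, 95% interval −3.25 to 0.82).

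The largest falls over release in N6W were those of ENSOARG00000015264 and ENSOARG00000019026. ENSOARG00000015264 had 17.5, 8.97 and 1.57 normalised reads in N22W at END and 18.7, 1.08 and 28.4 in CONTROL, with overlapping arms. The difference of its repair changes was 0.77 (SE 0.89, 95% interval −1.06 to 2.59), and −0.33 without CONTROL animal 2902. ENSOARG00000019026 had 71.9, 14.1 and 6.81 in N22W at END and 4.98, 51.0 and 186 in CONTROL, with a difference of 0.33 (SE 0.85, 95% interval −1.44 to 2.09). That difference was −0.25 without N22W animal 2913 and −0.08 without 2914, so no direction can be given for either gene.

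The most abundant transcripts and the genes that part the library sets lay near all genes in the counts of repair changes. Of the 50 most abundant genes, 29 had a higher and 21 a lower repair change in N22W, with a median difference of 0.06 and 0 at an unadjusted p under 0.05, against 2.86% of all genes. Of the 499 genes that part the sets, 237 passed the filter on low values, and of these 128 had a higher and 109 a lower change in N22W (median 0.06), with 3.38% at an unadjusted p under 0.05. Their mean change was −7.63, −7.93 and −7.70 in N22W and −7.85, −7.86 and −7.78 in CONTROL, with arm means of −7.75 (SD 0.16) and −7.83 (SD 0.05), and the arms overlapped. At TR alone they did not lie near all genes: 58 of the 237 were higher in N22W than in CONTROL, against 8412 of the 16417 genes tested. At END 105 were higher, against 8527.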

How the data were processed

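Total RNA of muscle biopsies was sequenced from 9 animals, 4 libraries each. Per the labels' protocols, stranded libraries followed depletion of ribosomal RNA with probes for human RNA. Per the submitters' processing notes, STAR 2.3.0e, R 3.0.2 and the assembly Oar_v3.1 were used, without a stated role; the sources used here do not say how reads were counted and scaled. Judged by its values, the deposited signal is a read number scaled by 1 factor in each library. Of the values worth 100 reads or fewer, 100.0% were whole multiples of a step to within 0.1. Steps ran from 0.51151 to 1.61526, and values have at most 4 digits, so large read numbers are approximate. Size factors had geometric means of 1.001 over the 12 libraries of the first set and 1.0 over the other 24, so the sets were scaled apart.

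Limma 3.58.1 with a mean-dependent prior was run in R 4.3.3 on log2(value + 1) for 16417 genes with a median of at least 0.5, on all 36 libraries with a mean per arm and time point and the animal as a block. Comparisons at a single time point used its 9 libraries. P-values are two-sided, adjusted by Benjamini-Hochberg over all genes tested. The count tests in edgeR 4.0.16 and DESeq2 1.42.0 used recovered reads. The design had assumed these units, and the scripts were tested on simulated data. The design text pairs libraries by animal; deviations from group means at TR and END correlated at 0.21 to 0.35 in each of the 6 animals. Libraries of a group differed by a chi-square per gene of 15.16 or more, so none was a copy.

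Genes described by identifier were the 2 in each direction with the smallest p, with non-overlapping changes, a mean of at least 10 and not among the genes that part the sets. Added to these were the 2 in each direction with the largest change from PRE to TR in N6W, and the 2 with the smallest p for a release change in N22W unlike both untreated arms. Members, lists and groups were chosen with earlier results of these data known. Planned lists of named genes could not be used.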

Additional observations from a re-analysis of the deposited data

Results flagged for a closer look

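ENSOARG00000009983 stands out because its repair change differed between the arms by a test of the difference itself, −6.14 on the log2 scale (SE 1.00, limma adjusted p = 0.041). The changes of the 3 N22W animals all lay below those of the 3 CONTROL animals. Over 18 alternatives the difference kept its sign, and 9 kept the call. Read totals of the END libraries overlapped, at 17792923, 14507597 and 34878984 in N22W and 12826148, 16370936 and 24438327 in CONTROL, and their part in the result was not tested.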

How the results depend on the processing

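The count of 1 gene for the repair change was 0 with a pseudocount of 0.5, with a median of at least 10 (a filter the gene itself does not pass), with no replicate block, with only the 12 TR and END libraries (replicate block kept) and in limma on the 6 differences per animal. At an unadjusted p under 0.05 these gave 445, 336, 256, 623 and 623 genes. It was 2 with no filter on low values and 2 in DESeq2 with the block, and 1 with a pseudocount of 4, TMM scaling, DESeq2 size factors, edgeR, the 24 libraries of both arms or without the genes that part the sets. With 1 animal left out it ran from 0 to 5, the 5 without N22W animal 2913. The TR count of 4 was 2 with a pseudocount of 0.5, 0 with only the 6 libraries of both arms, and 0 to 5 with 1 animal left out. The END count of 0 was 7 with only those 6 libraries. The release count of 0 was 10 in edgeR with the block and 0 to 4 with 1 animal left out. The block changed no other call of END minus END-CC or release, both at 0 without it. The cause was not tested. With 1 animal left out the difference of ENSOARG00000012921 ran from −0.82 to 0.24, that of ENSOARG00000015264 from −0.33 to 1.50 and that of ENSOARG00000019026 from −0.25 to 1.32. Group medians moved by less than the spread between animals in all 117 recomputed values. Leaving out 1 of 3 animals could hardly move them further than that, so this count does not show that they are stable. The median of the genes raised over release in N6W was −0.11, and −0.04 without N22W animal 2915. With 3 animals per arm and few reads, intervals mostly reached past a 4-fold difference for genes below 10 normalised reads. These intervals are unadjusted, so differences between the arms could also go uncalled at higher levels.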

Other observations

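The most abundant gene of the muscle took 34.3, 35.4 and 35.7% of the summed values in N22W at END and 25.5, 31.8 and 29.8% in CONTROL. The arms did not overlap there, with an exact two-sided permutation p of 0.1, which is the lowest that 6 animals allow, and 0.6 after adjustment over 12 such tests. At TR it took 27.1, 32.9 and 24.1% in N22W and 26.8, 25.7 and 22.5% in CONTROL, and the changes from TR to END overlapped (exact permutation p = 0.5).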
